A study of Mus musculus with 9 samples.

Results

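The comparison described here asked what the loss of Brca1 added on a p53-null background in mouse mammary cells. It set 3 RNA-seq libraries labelled p53/Brca1-null against 3 labelled p53-null, and it covered the well-measured genes, those at 5 FPKM or more in all 3 libraries of at least one of these groups. FPKM counts sequenced fragments after correction for the length of the transcript and the size of the library. Of 23951 gene rows in the table, 4070 met this rule: 2466 in both groups, 891 in p53-null only and 713 in p53/Brca1-null only. All 4070 were among the 9503 genes tested.

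The cells were YFP+ mammary epithelial cells sorted from female mice of mixed genetic background. Every mouse carried the Rosa26-Stop-YFP reporter (R26Y), which turns on yellow fluorescent protein where Cre recombinase removes the stop, and every mouse received Ad-K8-Cre into the ducts. This adenovirus drives Cre from the promoter of keratin 8, a keratin of luminal cells, so only cells that were infected and used that promoter were meant to recombine. The p53-null group was Trp53L/L;R26Y and the p53/Brca1-null group was Trp53L/L;Brca1L/L;R26Y, both collected 1 month after injection. Both groups therefore carried floxed Trp53, the reporter and the virus, and differed in floxed Brca1. The 3 WT libraries, from mice with the reporter alone, entered the model for the estimate of spread, and their values are given for reference. The ages of the mice are not in the labels. Nor do the labels say whether the replicates were separate mice, so the p-values reflect variation among these particular libraries, possibly only technical.

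BRCA1 helps to repair broken DNA by homologous recombination, and p53 halts or removes cells in which breaks persist. Loss of p53 lets cells without BRCA1 survive, and combined loss in luminal cells of the mouse mammary gland is a known route to basal-like tumours. The luminal layer holds hormone-sensing cells, which carry the estrogen, progesterone and prolactin receptors, and progenitor and alveolar cells, which make milk proteins and fat. Macrophages of the mammary gland lie close to the ducts, present antigen on MHC class II molecules and clear dying cells.

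The 6 libraries held sums of 361621 to 433880 FPKM. How many reads lay behind them is unknown, and the spacing of the smallest values put relative depths between 0.972 and 1.116. Each of these ratios was shared by only 21 to 35 of the 320 to 467 low genes compared, so the depths are uncertain. Genes detected at 1 FPKM or above numbered from 6286 in p53-null replicate 1 to 9767 in p53-null replicate 3, and the p53/Brca1-null libraries lay between these. p53-null replicate 1 stood apart. Of the well-measured genes 136 were listed at 0 there, against 8 and 1 in the other p53-null libraries and 45, 16 and 84 in p53/Brca1-null. Its correlations with the other libraries across the well-measured genes ran from 0.548 to 0.752, and those among the other 5 libraries from 0.702 to 0.872, a description across genes, which are not independent replicates. The keratin genes Krt8 and Krt18 were abundant in all 6 libraries, at 1136 FPKM or more. Trp53 stood at 55.7, 0.858 and 20.3 FPKM in the p53-null libraries against 23.7, 26.5 and 1.88 in p53/Brca1-null, and Brca1 was listed at 0 in 5 of the 6 libraries and at 0.00559 FPKM in p53-null replicate 1. Reads outside the deleted exons cannot be separated in such a table, so these values do not check the genotypes, and the groups are named by their labels.

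No gene passed the test between the groups. limma on log2(FPKM + 1) gave 0 calls among 9503 tested genes (0.0%) at an adjusted p under 0.05, and the smallest adjusted p was 0.315. At an unadjusted p under 0.05 there were 176 genes higher (1.85%) and 274 lower (2.88%) in p53/Brca1-null. Quantile normalization, which moved the median difference of all genes from -0.16 to 0.0009, turned this split to 309 higher and 274 lower. Without a call, genes are described below by their value in each library and by whether the groups overlap, meaning whether all 3 p53/Brca1-null libraries lay on one side of all 3 p53-null libraries. Among all tested genes 4.87% lay entirely higher in p53/Brca1-null and 8.02% entirely lower. Counts of tested list members with all 6 libraries are to be read against these shares. Among well-measured genes these shares were 8.97% (365 genes) and 11.4% (463 genes), and among the 2466 genes well measured in both groups 8.19% and 8.92%. Leaving out any 1 library makes such separation easier and gave 7.24% to 9.83% higher and 11.2% to 20.3% lower among all tested genes, with the largest lower share without p53-null replicate 1. Of all tested genes 42.9% had a positive difference. Brackets after the median of a gene list give its lowest and highest value with 1 of the 6 libraries left out. Counts with a library left out are given at least where they stood 5 or more above the count with all 6, each with its share of the list and the share of all tested genes in the same setting.

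Most well-measured genes lay close together in both genotypes. Of the 2466 genes well measured in both, 2183 (88.5%) differed by less than 1 on the log2 scale, 125 (5.07%) were higher by 1 or more and 158 (6.41%) lower by 1 or more. Their median log2 difference was -0.02, and it was -0.16 over all 9503 tested genes, with p53/Brca1-null minus p53-null as the direction throughout. Genes well measured in only one of the groups had to be high there and free to be low in the other, so their differences are described and not counted as support. Differences on the log2(FPKM + 1) scale understate those of low genes. At the edge of the rule, Wdr26 and Gtf3c2 entered with lowest values of 5.0006 and 5.001 FPKM in their better group, and Alkbh5 and Slc35e4 stayed out with 4.994 and 4.997.

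**Figure D1:**
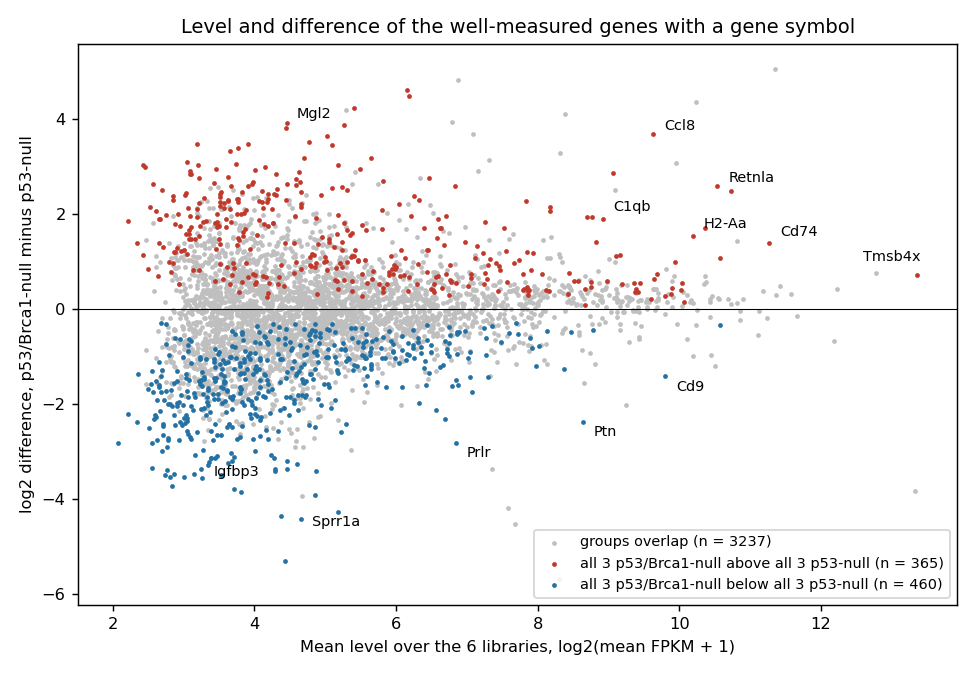
Log2 difference between p53/Brca1-null and p53-null (vertical axis) against the log2 of the mean level over the 6 libraries (horizontal axis) for the well-measured genes that carry a gene symbol. Red points are the 365 genes with all 3 p53/Brca1-null libraries above all 3 p53-null libraries, blue points those with all 3 below, and grey points overlap. Macrophage and MHC class II genes (Ccl8, Retnla, C1qb, H2-Aa, Cd74) are labelled among the abundant red points, and Prlr, Ptn and Cd9 among the blue ones.

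Genes of resident and alternatively activated macrophages stood higher in p53/Brca1-null. Of the 25 listed genes, 22 were tested and 19 were well measured. Of those tested, 15 lay entirely higher and 0 entirely lower, and 21 had a positive difference. Of the 8 members well measured in both groups, 7 lay entirely higher and 0 entirely lower. The others were well measured in p53/Brca1-null only, which by itself favours a higher level there. The median log2 difference was 2.39 (2.12 without p53-null replicate 2 to 2.80 without p53/Brca1-null replicate 1), against -0.16 over all tested genes, and it stayed between 2.12 and 2.80 in 18 other settings. No member passed.

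Retnla, a secreted protein induced by interleukin-4 in alternatively activated macrophages, stood at 694, 185 and 464 FPKM in the p53-null libraries against 1673, 3815 and 2088 in p53/Brca1-null. The highest p53-null library was well below the lowest p53/Brca1-null library, and replicate 2 was the highest of the latter. The log2 difference was 2.60 ± 0.47 (SE), the smallest p of the comparison (4.15e-05; limma adjusted p = 0.315). In WT Retnla stood at 240.1, 115 and 105 FPKM, and only p53-null replicate 2 lay within that range. Ccl8, a chemokine that draws monocytes and T cells, stood at 49.5, 146 and 184 FPKM in the p53-null libraries against 1195, 1347 and 1841 in p53/Brca1-null. The lowest p53/Brca1-null library was several times the highest p53-null library. This gave a log2 difference of 3.69 ± 0.90 (limma adjusted p = 0.396), and the ratio of the group means was 11.5.

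The lectin receptors of these macrophages followed the same order. Clec10a, which binds galactose-type sugars, stood at 1.31, 3.36 and 5.04 FPKM in the p53-null libraries against 41.6, 77.5 and 119 in p53/Brca1-null, and its close relative Mgl2 at 0.0268, 5.001 and 13.98 against 41.001, 83.5 and 80.4. Neither pair of groups overlapped. Mrc1, the mannose receptor, stood at 2.97, 2.41 and 5.65 against 20.3, 22.1 and 21.7 FPKM. Its p53/Brca1-null libraries were nearly level with one another. Cd209f stood at 20.2, 23.9 and 39.1 against 82.5, 360.3 and 151 FPKM, and Cd209g, of the same gene cluster, at 19.3, 13.5 and 31.7 against 62.5, 237 and 88.5. Replicate 2 was the highest p53/Brca1-null library for both of these. Where reads are shared among such similar genes their split is uncertain.

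Secreted products of the macrophage list stood higher as well. Pf4, platelet factor 4, also made by tissue macrophages, stood at 130.2, 43.1 and 321 FPKM in the p53-null libraries against 689.8, 1082 and 952 in p53/Brca1-null (log2 difference 2.86 ± 0.73, limma adjusted p = 0.396). The chemokine gene Ccl6 stood at 21.5, 27.05 and 28.2 against 88.9, 157 and 154 FPKM and Ccl24, which attracts eosinophils, at 10.2, 5.05 and 6.205 against 22.3, 47.3 and 17.9. The groups did not overlap for any of the 3 genes. F13a1, a coagulation factor subunit made by macrophages, stood at 1.34, 3.87 and 9.802 against 43.9, 68.3 and 14.8 FPKM. Il10, the anti-inflammatory cytokine, was listed at 0 in p53-null replicate 1, at 0.1397 and 5.701 FPKM in replicates 2 and 3, and at 13.3, 12.5 and 13.5 in p53/Brca1-null. Maf, a transcription factor of resident macrophages, was low in all libraries, at 0.136, 0.235 and 1.29 against 4.01, 5.36 and 6.56 FPKM, without overlap.

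Some members of the list did not separate. Folr2, the folate receptor of resident macrophages, was listed at 0 in p53-null replicate 1, stood at 0.0878 and 28.97 FPKM in replicates 2 and 3, and at 58.1, 116 and 27.3 in p53/Brca1-null, where p53-null replicate 3 exceeded p53/Brca1-null replicate 3. Arg1, the arginase of alternatively activated macrophages, stood at 2.89, 91.6 and 43.9 against 11.9, 12.6 and 32.1 FPKM, with a log2 difference of -0.49. Gas6, a bridging ligand for the uptake of dying cells, overlapped at 27.3, 4.97 and 29.9 against 17.8, 62.8 and 63.8 FPKM. Lyve1 and Chil3 were under 1 FPKM in all 6 libraries.

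Summed over the list, the level was 1142, 597 and 1345 FPKM for p53-null, 4266, 8042 and 5945 for p53/Brca1-null and 703, 347 and 969 for WT. Every p53/Brca1-null sum was above every other sum. In RNA from a sorted population of many cells, a difference in the share of cells of a type and a difference in RNA per cell cannot be told apart. The sorted cells were labelled epithelial, and the part that macrophage RNA played in any other result here was not tested.

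**Figure D2:**
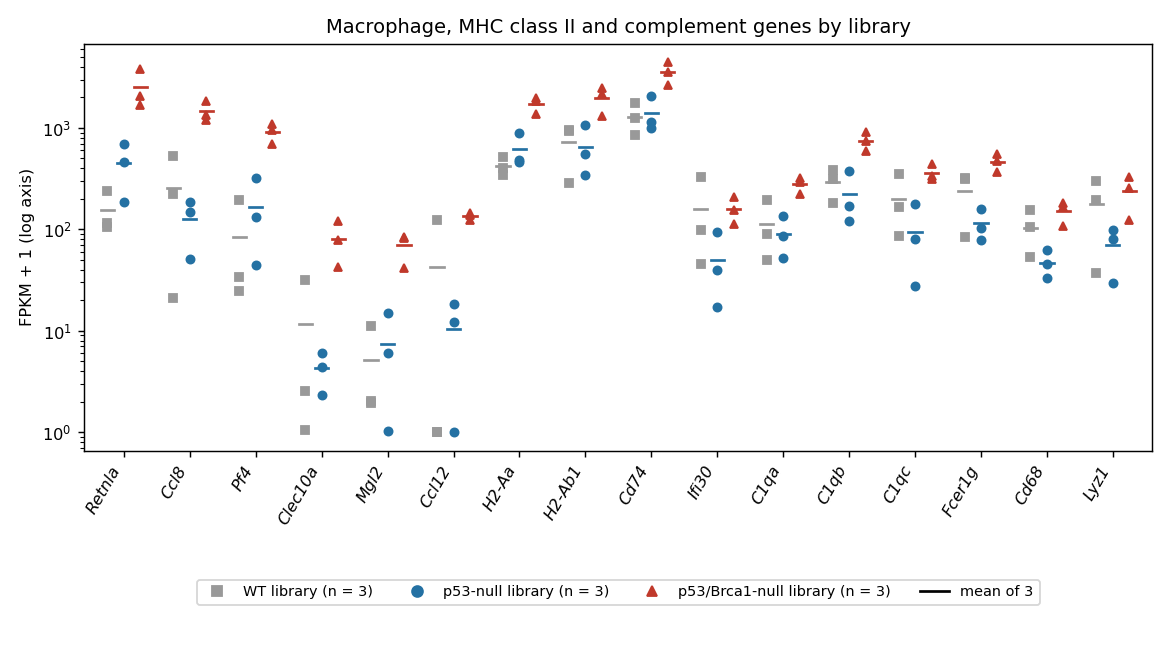
Level of 16 macrophage, MHC class II and complement genes as FPKM + 1 on a log axis, one symbol per library and a bar at the mean of 3. The genes were picked among those without overlap, so the p53/Brca1-null libraries (red) lie above the p53-null libraries (blue) for each by choice. Members of the same lists that overlapped, such as Lyz2, Tyrobp, H2-DMa, C3 and Folr2, are not shown. Some WT libraries (grey) lie among or above the red ones for several genes, such as Ifi30 and C1qc.

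Genes of antigen presentation on MHC class II included some of the most abundant that stood higher. All 12 listed genes were in the table, 11 were tested and 9 were well measured, each of these in both groups, so that the rule itself did not favour a difference. Of those tested, 8 lay entirely higher in p53/Brca1-null and 0 entirely lower, with a median log2 difference of 1.04 (0.73 without p53/Brca1-null replicate 2 to 1.31 without p53/Brca1-null replicate 3). None passed. Some of these genes share a short promoter element, the Y box, at which the NF-Y complex binds beside the regulators that recruit the class II transactivator. The promoters of the 3 listed genes whose sequence holds the exact 8 letters CTGATTGG on either strand follow, as the 150 bases before the start in RefSeq (GRCm38.p6, another build than the mm9 of the values), 5′ to 3′, with those letters in capitals.
H2-Aa: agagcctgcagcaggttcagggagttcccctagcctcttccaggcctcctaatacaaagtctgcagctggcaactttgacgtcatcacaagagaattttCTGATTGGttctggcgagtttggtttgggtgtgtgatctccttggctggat
H2-Eb1: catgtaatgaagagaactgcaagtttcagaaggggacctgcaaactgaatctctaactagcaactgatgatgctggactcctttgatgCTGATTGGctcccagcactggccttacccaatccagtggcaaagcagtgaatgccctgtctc
H2-Oa: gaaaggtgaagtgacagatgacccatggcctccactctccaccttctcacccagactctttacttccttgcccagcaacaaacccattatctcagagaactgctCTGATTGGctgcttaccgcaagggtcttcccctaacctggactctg
The stretch of H2-Aa is chr17:34287824-34287973 on the minus strand, that of H2-Eb1 chr17:34305717-34305866 on the plus strand and that of H2-Oa chr17:34092229-34092378 on the plus strand. The letters begin 51, 62 and 46 bases before the start in H2-Aa, H2-Eb1 and H2-Oa. Promoters of 9 of the 12 listed genes were searched over 250 bases before the start, and H2-Ab1, Cd74 and Ciita were not among them. Of these 10 promoters 3 held the letters, against 1258 of 32851 promoters in the table (3.83%). A match is a description of the sequence and not of binding, and the motif was chosen with the expression values known.

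The chains of the class II molecules themselves differed widely in level. H2-Aa, the alpha chain of I-A, stood at 463, 482 and 894 FPKM in the p53-null libraries against 1361, 1963 and 1863 in p53/Brca1-null. Every p53/Brca1-null library was above every p53-null and every WT library. The log2 difference was 1.54 ± 0.32 (SE; limma adjusted p = 0.363). Its partner H2-Ab1, the beta chain, stood at 346, 552 and 1057 against 1325, 2153 and 2506 FPKM, with a log2 difference of 1.71 ± 0.46 (limma adjusted p = 0.452). In p53-null, replicate 3 was the highest for both genes. H2-Eb1, the beta chain of I-E, stood much lower, at 8.41, 29.2 and 25.7 against 46.4, 76.2 and 82.6 FPKM, without overlap. H2-Oa, which holds the same letters in its promoter and encodes a chain of the modulator H2-O, stayed under 6 FPKM in all 6 libraries and overlapped, with 1 p53-null and 1 p53/Brca1-null library listed at 0.

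The proteins that load and guide class II molecules followed. Cd74, the invariant chain that escorts class II molecules to endosomes, stood at 999, 1134 and 2084 FPKM in the p53-null libraries against 2680.0, 4427 and 3543 in p53/Brca1-null, with WT at 1259, 859 and 1758. The lowest p53/Brca1-null library exceeded the highest p53-null and the highest WT library. This gave a log2 difference of 1.38 ± 0.31 (limma adjusted p = 0.370). Ifi30, a lysosomal thiol reductase that unfolds antigens, stood at 16.02, 38.6 and 92.4 against 111, 156 and 206 FPKM, with p53-null replicate 3 nearest to p53/Brca1-null. Ctss, cathepsin S, which trims the invariant chain, separated by a narrow margin at 133, 118 and 110.3 against 142, 152 and 244 FPKM. The peptide-exchange chains H2-DMb1 and H2-DMb2, near-identical copies whose reads may be split between them, stood at 13.7, 12.1 and 19.1 against 29.4, 42.96 and 21.3 FPKM and 17.4, 15.2 and 21.6 against 30.2, 58.8 and 26.3. Their partner H2-DMa overlapped, at 38.4, 8.83 and 26.6 against 41.8, 68.3 and 30.3 FPKM. H2-Ea-ps, annotated as a pseudogene of the I-E alpha chain, was listed at 0 in p53-null replicate 1, stood at 8.33 and 6.799 FPKM in replicates 2 and 3, and at 62.2, 35.8 and 45.2 in p53/Brca1-null. Ciita, the class II transactivator, was at 0, 0.1100 and 1.08 FPKM in the p53-null libraries against 1.23, 1.49 and 0.334 in p53/Brca1-null, too low to be well measured, with 0 as its listed value in p53-null replicate 1. Summed over the class II list, levels were 2035, 2393 and 4337 FPKM for p53-null, 5768, 9103 and 8523 for p53/Brca1-null and 3884, 1640.0 and 3664 for WT.

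Complement genes stood higher in part. Of 18 tested, 8 lay entirely higher and 0 entirely lower (4 of the 6 well measured in both groups), with a median log2 difference of 1.52 (0.89 without p53-null replicate 2 to 1.90 without p53-null replicate 3). The 3 chains of C1q, which macrophages secrete and which binds dying cells and immune complexes, were among the most abundant of the list. C1qa stood at 84.5, 50.6 and 134 FPKM in the p53-null libraries against 294, 318 and 221 in p53/Brca1-null, C1qb at 119, 169 and 373 against 597, 735 and 907, and C1qc at 26.5, 79.8 and 176 against 309, 438 and 331. The groups did not overlap for any chain, and the log2 differences were 1.71 ± 0.55, 1.91 ± 0.44 and 2.28 ± 0.63 (SE; limma adjusted p = 0.553, 0.370 and 0.452). Cfb, factor B of the alternative pathway, was listed at 0 in p53-null replicate 1, stood at 8.18 and 4.52 FPKM in replicates 2 and 3, and at 9.71, 26.6 and 38.9 in p53/Brca1-null. Cfp, properdin, which stabilises that pathway's convertase, stood at 54.6, 17.5 and 51.2 against 144, 151 and 82.8 FPKM, and C3ar1, the C3a receptor, at 4.81, 0.431 and 5.36 against 5.74, 19.8 and 15.8. C3, the central component, overlapped at 24.7, 5.87 and 17.6 against 9.95, 25.98 and 21.1 FPKM, and so did Clu, a soluble complement inhibitor also made by epithelium, at 101, 177 and 226 against 294, 162 and 190.5.

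General myeloid genes leaned the same way with more overlap. All 30 listed genes were tested and 23 were well measured. Of those tested, 10 lay entirely higher and 0 entirely lower, 28 differences were positive, and the median was 1.21 (0.80 without p53-null replicate 1 to 1.79 without p53/Brca1-null replicate 1). Fcer1g, the shared signalling chain of Fc receptors, stood at 78.1, 103 and 159 FPKM in the p53-null libraries against 363, 468 and 553 in p53/Brca1-null, without overlap (log2 difference 2.06 ± 0.51, limma adjusted p = 0.396). Cd68, an endosomal glycoprotein of macrophages, stood at 31.9, 44.1 and 61.8 against 108, 180.4 and 166 FPKM, also without overlap. Csf1r, the receptor on which macrophages depend, stood at 1.24, 5.39 and 14.98 against 27.3, 27.02 and 22.6 FPKM. For this receptor p53-null replicate 1 was the lowest library, and the groups did not overlap. Of the 11 myeloid genes well measured in both groups, 3 lay entirely higher, and over all tested members the count was 17 (56.7%; all genes 9.39%) without p53-null replicate 3 and 15 (50%; all genes 9.83%) without p53/Brca1-null replicate 1.

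Other myeloid genes varied in how far they separated. Lyz2, lysozyme of macrophages and neutrophils, was the most abundant of the list and overlapped, at 503, 1583 and 945 against 1445, 3039.7 and 3313 FPKM, with WT at 2119, 592 and 3223. Lyz1, its near-identical neighbour with which reads may be shared, separated at 28.7, 96.9 and 79.3 against 122, 257 and 329.6 FPKM. Tyrobp, the adaptor DAP12, overlapped at 295, 286 and 511 against 484, 731 and 951 FPKM. Fcgr3, a low-affinity Fc receptor, stood at 0.0628, 16.2 and 16.9 against 34.4, 86.7 and 56.6 FPKM and Alox5ap, which feeds leukotriene synthesis, was listed at 0 in p53-null replicate 1 and stood at 8.96 and 15.8 FPKM in replicates 2 and 3 against 70.7, 27.9 and 20.1. Ptprc, the pan-leukocyte phosphatase CD45, went the other way, at 1.59, 13.5 and 4.62 against 1.68, 0.982 and 5.73 FPKM, and overlapped. The summed level was 1205, 2673 and 2851 FPKM for p53-null and 3606, 5998 and 6862 for p53/Brca1-null, against 4212, 1416 and 5380.5 in WT, and the WT libraries overlapped both groups.

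Several more of the genes that stood furthest apart are known from myeloid cells. Ly86, the MD-1 partner of a Toll-like receptor relative, stood at 0.0456, 13.8 and 5.15 FPKM in the p53-null libraries against 70.5, 53.6 and 46.4 in p53/Brca1-null. Fcrls, an Fc receptor-like gene of microglia and tissue macrophages, stood at 0.0202, 4.22 and 17.2 against 30.8, 64.8 and 33.3 FPKM, and Lilrb4, an inhibitory receptor, at 2.44, 35.1 and 59.9998 against 83.7, 128 and 216. Cd83, a surface molecule of activated antigen-presenting cells, stood at 0.0186, 11.1 and 48.2 against 49.995, 79.97 and 106 FPKM. In all 4 genes p53-null replicate 1 was the lowest library, under 5 FPKM. These genes were therefore well measured in p53/Brca1-null only, which by itself favours a higher level there. Hddc2, a nucleotide phosphohydrolase gene also well measured in p53/Brca1-null only, stood at 2.61, 0.976 and 17.5 against 93.1, 37.1 and 47.6 FPKM.

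Lysosomal enzymes separated in part. Of 25 listed and tested genes, 6 (24%; all genes 4.87%) lay entirely higher and 0 entirely lower, with a median of 0.42 (0.10 without p53-null replicate 1 to 0.69 without p53-null replicate 3). Of the 15 well measured in both groups 3 lay entirely higher, with a median of 0.31. The count entirely higher was 9 (36%; all genes 9.39%) without p53-null replicate 3 and 9 (36%; all genes 9.83%) without p53/Brca1-null replicate 1, while 2 (8%; all genes 20.3%) lay entirely lower without p53-null replicate 1 and 3 (12%; all genes 14.2%) without p53/Brca1-null replicate 2. Ctsc, cathepsin C, which activates granule proteases, stood at 0.572, 27.003 and 17.96 FPKM in the p53-null libraries against 60.8, 77.7 and 78.96 in p53/Brca1-null. Hexa, a hexosaminidase subunit, stood at 4.52, 36.8 and 48.1 against 89.8, 93.97 and 116 FPKM, and Npc2, a lysosomal cholesterol carrier, at 22.2, 22.7 and 30.2 against 33.7, 62.7 and 76.8. Cst3, the secreted cathepsin inhibitor cystatin C and one of the most abundant of the list, overlapped at 813, 359 and 764 against 673, 1599 and 1202 FPKM. Slc11a1, an ion transporter of macrophage phagosomes and 1 of 121 tested solute carriers, stood at 4.12, 5.62 and 5.98 against 26.9, 28.1 and 42.1 FPKM, without overlap. Ctsc, Hexa and Slc11a1 were well measured in p53/Brca1-null only, which by itself favours a higher level there.

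Chemokine and cytokine genes were divided. Of 25 tested, 2 lay entirely higher and 1 entirely lower, with a median of 0.68 (-0.20 without p53-null replicate 1 to 0.91 without p53-null replicate 3), and -0.32 with library weights. Without p53/Brca1-null replicate 1, 7 (28%; all genes 9.83%) lay entirely higher. Ccl12, a monocyte chemokine held outside this list, was listed at 0 in p53-null replicate 1 and stood at 11.2 and 17.2 FPKM in replicates 2 and 3, against 138, 121 and 144 in p53/Brca1-null. Ccl9, another myeloid chemokine, stood at 11.8, 1.44 and 5.73 against 30.5, 38.96 and 49.3 FPKM and Il1rn, the interleukin-1 receptor antagonist, at 16.3, 4.59 and 15.4 against 35.9, 36.3 and 60.4. Ccl7, the most abundant of the list in p53/Brca1-null, overlapped at 84.3, 83.4 and 289.8 against 264, 824 and 1716 FPKM. Cxcl14, a chemokine made by epithelium, lay entirely lower, at 26.2, 24.8 and 50.3 against 16.2, 5.95 and 18.9 FPKM. Il6, an inflammatory cytokine, stood at 558, 115 and 299 FPKM in the p53-null libraries and at 20.1 and 155 in p53/Brca1-null replicates 1 and 2, and was listed at 0 in replicate 3. Csf3, which drives neutrophil production, stood at 959.9, 14.2 and 119 FPKM in p53-null, was listed at 0 in p53/Brca1-null replicate 1, and stood at 138 in replicate 2 and under 1 in replicate 3. Both genes overlapped and varied widely within p53-null.

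Lymphocyte markers were low. Of 14 tested, 2 were well measured, Cd79b and Nkg7, and 2 lay entirely higher and 0 entirely lower, with a median of -0.37 (-1.09 without p53-null replicate 1 to 0.38 without p53/Brca1-null replicate 1). Cd79b, a signalling chain of the B cell receptor, was listed at 0 in p53-null replicate 1, stood at 3.06 and 1.81 FPKM in replicates 2 and 3, and at 12.01, 5.499 and 20.8 in p53/Brca1-null. Nkg7, a granule protein of NK and T cells, was listed at 0 in p53-null replicate 1 and overlapped otherwise, at 16.4 and 5.48 against 5.68, 20.2 and 39.2 FPKM. The list summed to 13.7, 131 and 113 FPKM for p53-null and 43.05, 70.9 and 159 in p53/Brca1-null, overlapping.

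Interferon-stimulated genes mostly overlapped, and the median of MHC class I genes lay slightly below that of all tested genes. Of 29 tested interferon-stimulated genes, 3 lay entirely higher and 1 entirely lower, with a median of 0.19 (0.05 without p53/Brca1-null replicate 2 to 0.56 without p53/Brca1-null replicate 3). Ifi27l2a, a small interferon-induced membrane protein, stood at 315, 37.3 and 74.3 FPKM in the p53-null libraries against 493, 462 and 341 in p53/Brca1-null, and p53-null replicate 1 came closest. Oas1a, a sensor of double-stranded RNA, was listed at 0 in p53-null replicate 1 and stood at 4.86 and 3.61 against 28.98, 5.997 and 27.2 FPKM. Irf1, a transcription factor of the interferon-gamma response, lay entirely lower, at 35.8, 52.6 and 59.1 against 21.95, 30.001 and 27.8 FPKM. Ifitm3, the most abundant, overlapped at 1609, 290.2 and 530.1 against 501, 630.2 and 422 FPKM.

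For MHC class I and the immunoproteasome, 0 of 16 tested genes lay entirely higher and 4 (25%) entirely lower, against 4.87% and 8.02% of all tested genes. The median was -0.27 (-0.39 without p53-null replicate 1 to -0.12 without p53-null replicate 2), against -0.16 over all tested genes. Without p53-null replicate 1 the median of all tested genes was -0.37, close to that of the list. H2-D1, a class I heavy chain, stood at 1586, 1953 and 1571 FPKM in the p53-null libraries against 1185, 1449 and 1439.6 in p53/Brca1-null. Tapbp, tapasin, which helps load peptide, stood at 49.7, 63.8 and 74.1 against 27.5, 27.9 and 35.01 FPKM, and Tap2, a chain of the peptide transporter, at 31.7, 31.5 and 33.1 against 27.5, 28.1 and 15.5. B2m, the shared light chain, overlapped at 3267, 1745 and 2838 against 2369, 2433 and 1864 FPKM. Summed levels lay close together, at 6298, 5411 and 6017 FPKM against 5105, 5452 and 5142.

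The NF-kB feedback and inflammatory list held 2 genes entirely higher and 0 entirely lower of 22 tested, with a median of -0.35 (-0.55 without p53/Brca1-null replicate 3 to -0.03 without p53/Brca1-null replicate 1). Without p53-null replicate 1, 8 (36.4%; all genes 20.3%) lay entirely lower. Nfkbia, the inhibitor that NF-kB itself induces, overlapped at 359, 515 and 399 against 277, 426 and 309 FPKM. Among secreted innate defence genes 3 of 18 lay entirely higher and 0 entirely lower, with a median of 0.68 (-0.02 without p53/Brca1-null replicate 3 to 1.15 without p53/Brca1-null replicate 1). Wfdc18, a whey acidic protein relative secreted by mammary epithelium, stood at 459, 178 and 1388 FPKM in the p53-null libraries against 2925, 2218 and 3080.3 in p53/Brca1-null, without overlap, and at 17.8, 245 and 128 in WT. Saa1, an acute phase protein, was listed at 0 in p53-null replicates 1 and 2, stood at 7.37 FPKM in replicate 3, and at 9.68, 28.7 and 374 in p53/Brca1-null, where replicate 3 set the mean.

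Milk protein genes had large positive differences that rested on some of the libraries. Of 14 tested, 13 had a positive difference and the median was 2.01 (1.19 without p53/Brca1-null replicate 3 to 3.69 without p53/Brca1-null replicate 1), but 1 lay entirely higher and 0 entirely lower. Without p53/Brca1-null replicate 1, 9 (64.3%; all genes 9.83%) lay entirely higher. Csn1s2a, a casein and one of the 10 most abundant well-measured genes, stood at 173, 0.108 and 543 FPKM in the p53-null libraries against 82.4, 4151 and 10777 in p53/Brca1-null. Replicates 2 and 3 of p53/Brca1-null were above every other library, while replicate 1 was below 2 of the p53-null libraries. Csn1s1 stood at 7.47, 4.53 and 275 against 101, 691 and 923 FPKM and Csn3, the casein that stabilises milk micelles, at 6.65, 27.5 and 99.2 against 92.8, 269 and 356. Both overlapped through p53-null replicate 3.

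The same 2 libraries stood high for other milk genes. Glycam1, a mucin-like milk protein, was listed at 0 in p53-null replicates 1 and 2, stood at 53.9 FPKM in replicate 3, and at 11.7, 260.1 and 376 in p53/Brca1-null. Wap, whey acidic protein, was listed at 0 in p53-null replicate 2 and in p53/Brca1-null replicate 1, stood at 18.5 and 16.2 FPKM in p53-null replicates 1 and 3, and reached 46.7 and 247 in p53/Brca1-null replicates 2 and 3. Lalba, the lactose synthase subunit, reached 379 FPKM in p53/Brca1-null replicate 3 and was listed at 0 in replicate 1. Trf, transferrin, was the 1 milk gene entirely higher, at 92.5, 116 and 308 FPKM against 388, 408 and 1184 (log2 difference 1.93 ± 0.72, limma adjusted p = 0.796). Summed over the list, levels were 458, 310.1 and 2200.1 FPKM for p53-null and 872, 8532 and 18985 in p53/Brca1-null, an overlapping pair of ranges.

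Luminal progenitor genes stood modestly higher, with 10 of 11 positive and a median of 0.66 (0.47 without p53-null replicate 1 to 1.10 without p53-null replicate 3). Trf alone lay entirely higher, and the count was 5 (45.5%; all genes 9.39%) without p53-null replicate 3 and 5 (45.5%; all genes 9.83%) without p53/Brca1-null replicate 1. Plet1, a surface protein of progenitors, overlapped at 99.9, 211 and 405 FPKM in the p53-null libraries against 513, 358 and 365 in p53/Brca1-null. Cd14, a receptor for bacterial lipid found on luminal progenitors and on monocytes, overlapped at 121, 89.1 and 199 against 177, 459 and 560.1 FPKM. Kit was under 1 FPKM in all 6 libraries, and Elf5, the transcription factor of the alveolar lineage, was too low to be well measured, at 0, 1.62 and 2.24 against 0, 3.31 and 6.75 FPKM, with replicate 1 of each group listed at 0.

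Lipid genes were divided. Of 22 tested milk fat and lipid droplet genes, 10 were positive, 1 lay entirely higher and 0 entirely lower, and the median was -0.12 (-0.23 without p53-null replicate 1 to 0.18 without p53/Brca1-null replicate 1). Plin2, which coats lipid droplets, overlapped at 120.0, 127 and 306 FPKM in the p53-null libraries against 218, 373 and 538 in p53/Brca1-null. Lpl, lipoprotein lipase, lay entirely higher by a small margin, at 9.58, 9.92 and 12.1 against 13.5, 26.4 and 16.8 FPKM. Several cholesterol synthesis genes stood lower: 5 of 16 tested (31.2%) lay entirely lower, against 8.02% of all tested genes, and 0 entirely higher. The median was -0.94 (-1.29 without p53-null replicate 1 to -0.36 without p53/Brca1-null replicate 3). Of the 16, 5 were well measured, 0 of them in both groups. Sqle, Fdft1 and Fdps, given below, were well measured in p53-null only, which by itself favours a lower level in p53/Brca1-null. Without p53/Brca1-null replicate 3, which listed Fdps and Idi1 at 0, 3 (18.8%; all genes 9.08%) lay entirely higher and 6 (37.5%; all genes 13.6%) entirely lower. Sqle, squalene epoxidase, stood at 21.1, 70.3 and 35.7 against 1.33, 9.93 and 1.61 FPKM (log2 difference -3.26 ± 1.04, limma adjusted p = 0.549). Fdft1, squalene synthase, stood at 8.07, 18.6 and 23.2 against 2.49, 5.23 and 5.45 FPKM. Fdps, which makes farnesyl pyrophosphate one step earlier, stood at 51.9, 42.8 and 30.6 against 12.4, 30.1 and 0 FPKM, listed at 0 in p53/Brca1-null replicate 3. Idi1 and Msmo1, other enzymes of the route, overlapped, at 16.3, 5.64 and 2.398 against 23.1, 5.03 and 0 FPKM and 6.32, 11.2 and 7.29 against 1.55, 17.98 and 0.343, with Idi1 listed at 0 in p53/Brca1-null replicate 3.

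Hormone-sensing luminal genes stood lower. Of 20 listed genes 18 were tested and 12 were well measured. Of those tested, 5 (27.8%) lay entirely lower, against 8.02% of all tested genes, and 0 entirely higher. Differences were positive for 3. The median was -0.92 (-1.47 without p53-null replicate 1 to -0.60 without p53-null replicate 2), against -0.16 over all tested genes. Of the 9 well measured in both groups 4 lay entirely lower. With p53-null replicate 1 left out, 11 (61.1%; all genes 20.3%) lay entirely lower.

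Prlr, the prolactin receptor, stood at 121, 323 and 155 FPKM in the p53-null libraries, 27.8, 12.9 and 43.6 among p53/Brca1-null and 363, 204 and 78.8 among WT. All p53/Brca1-null libraries were below 50 FPKM and all others above 75. The log2 difference was -2.81 ± 0.65 (SE; limma adjusted p = 0.370), and the p53-null mean was 7.1 times the p53/Brca1-null mean. Ptn, pleiotrophin, a secreted growth factor, stood at 219.9, 1308 and 535 FPKM in the p53-null libraries against 70.2, 96.2 and 159.8 in p53/Brca1-null, with WT at 301, 579 and 371. p53-null replicate 2 was by far the highest, and the groups did not overlap (log2 difference -2.37 ± 0.54, limma adjusted p = 0.370). Fgg, a fibrinogen chain expressed in hormone-sensing mammary cells, stood at 28.9, 158 and 18.2 against 5.34, 6.75 and 11.1 FPKM. Areg, the EGF family ligand through which estrogen acts on the duct, separated more narrowly, at 109, 115 and 183 against 93.2, 41.3 and 84.96 FPKM.

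The hormone receptors were low. Pgr, the progesterone receptor, stood at 0.409, 3.66 and 1.65 FPKM across p53-null and was listed at 0 in p53/Brca1-null replicates 1 and 2, with 0.0882 FPKM in replicate 3. Esr1, the estrogen receptor, stood at 0.508, 3.38 and 1.69 FPKM in p53-null, was listed at 0 in p53/Brca1-null replicates 1 and 2 and stood at 1.66 in replicate 3. Neither reached 5 FPKM in any of the 6 libraries, and Esr1 overlapped. Foxa1, the pioneer factor of the estrogen receptor, stood at 0.0845, 17.8 and 15.03 against 4.32, 0.247 and 3.095 FPKM and overlapped through p53-null replicate 1. Cited1, a cofactor of that receptor, overlapped at 73.2, 317 and 246 against 234, 71.8 and 51.04 FPKM, and Calca, calcitonin gene-related peptide, at 131, 30.2 and 809 against 246, 322 and 71.6. Wnt4, a paracrine signal downstream of progesterone, stood at 9.58, 11.97 and 13.7 against 11.1, 4.35 and 0.0959 FPKM and overlapped through p53/Brca1-null replicate 1.

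**Figure D3:**
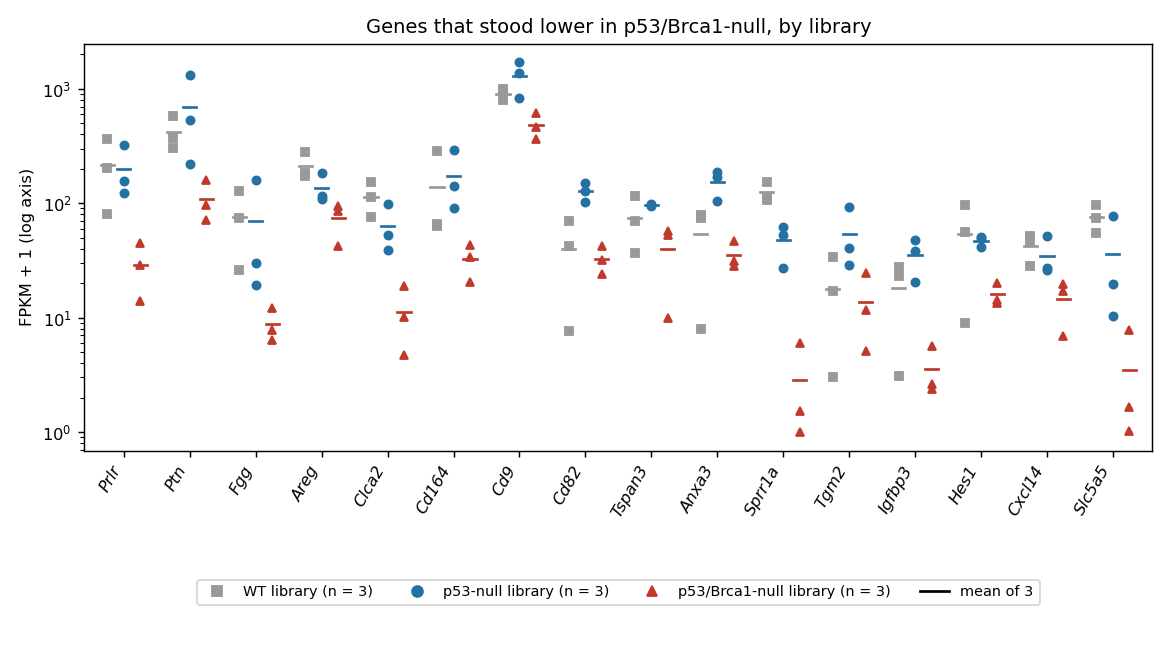
Level of 16 genes that stood lower in p53/Brca1-null, as FPKM + 1 on a log axis, one symbol per library and a bar at the mean of 3. The genes were picked among those without overlap, so the p53/Brca1-null libraries (red) lie below the p53-null libraries (blue) for each by choice. The WT libraries (grey) lie above all p53/Brca1-null libraries for Prlr and Ptn and spread over both groups for Igfbp3. For Cd82 they stay below all p53-null libraries.

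Luminal transcription factors had 3 of 26 members entirely lower (11.5%, against 8.02% of all tested genes), 0 entirely higher and a median of -0.42 (-0.51 without p53/Brca1-null replicate 1 to -0.25 without p53/Brca1-null replicate 2). The count of lower ones was 8 (30.8%; all genes 20.3%) without p53-null replicate 1 and 8 (30.8%; all genes 12%) without replicate 2. Hes1, a repressor induced by Notch, stood at 48.3, 40.1 and 50.1 FPKM in the p53-null libraries against 19.2, 12.5 and 13.2 in p53/Brca1-null, and every p53/Brca1-null library was below every p53-null library. Stat3, which drives involution of the gland, stood at 80.02, 78.3 and 67.3 against 24.04, 39.2 and 50.6 FPKM. Id4, an inhibitor of helix-loop-helix factors also linked to Brca1 regulation, stood at 23.5, 6.102 and 10.8 against 6.02, 5.09 and 1.24 FPKM. Id2 went the other way and overlapped, at 37.1, 37.8 and 75.9 against 73.7, 148 and 372 FPKM. Hes1 was also the 1 gene entirely lower among 24 tested Notch, Wnt and TGF-beta genes, whose median was -0.33 (-0.52 without p53-null replicate 1 to -0.27 without p53-null replicate 2). For these the count lower was 7 (29.2%; all genes 20.3%) without p53-null replicate 1.

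Luminal keratins and surface genes hardly separated with all 6 libraries. Of 20 tested, 1 lay entirely higher (Wfdc18) and 1 entirely lower (Cldn10), and the median was -0.66 (-1.15 without p53-null replicate 1 to -0.18 without p53-null replicate 2). With p53-null replicate 1 left out, 13 (65%; all genes 20.3%) lay entirely lower. Krt8 stood at 1136, 4385 and 2771 FPKM in the p53-null libraries against 1858, 1208 and 1956 in p53/Brca1-null, and Krt18, its partner, at 1460.4, 6009 and 3543 against 2783, 2497 and 3269. In both genes p53-null replicate 1 was the lowest p53-null library and replicate 2 the highest of all 6. Epcam, an epithelial adhesion molecule, overlapped at 121, 524 and 577 against 366, 191 and 229 FPKM and Cdh1, E-cadherin, at 4.296, 98.4 and 77.03 against 57.8, 19.8 and 16.8. Cldn10, a channel-forming claudin, stood at 39.3, 39.5 and 33.01 against 18.97, 7.01 and 12.4 FPKM without overlap. The list summed to 4749, 17726 and 12089 FPKM for p53-null and 10280.3, 7394 and 10928 in p53/Brca1-null.

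Cell junction genes gave a like picture: 1 of 28 tested lay entirely lower and 0 entirely higher, with a median of -0.47 (-1.01 without p53-null replicate 1 to -0.04 without p53-null replicate 2). The count lower was 13 (46.4%; all genes 20.3%) without p53-null replicate 1 and 6 (21.4%; all genes 12%) without p53-null replicate 2. Ctnnb1, beta-catenin, overlapped at 72.6, 47.3 and 67.5 FPKM in the p53-null libraries against 35.1, 19.2 and 53.9 in p53/Brca1-null. Jup, plakoglobin, overlapped at 11.4, 64.2 and 54.2 against 34.04, 23.997 and 28.9 FPKM, and Perp, a desmosomal p53 target, at 101, 42.4 and 72.9 against 64.02, 23.3 and 34.3. Basal and myoepithelial genes had a median of -0.82 (-1.45 without p53-null replicate 2 to -0.61 without p53-null replicate 1), with 1 of 19 entirely higher and 1 entirely lower. Their count lower was 10 (52.6%; all genes 12%) without p53-null replicate 2 and 6 (31.6%; all genes 13.3%) without p53/Brca1-null replicate 1. Krt14, a basal keratin, overlapped at 409.6, 104 and 523 against 113, 139.9 and 291 FPKM, and Krt17, another, at 427, 113 and 416 against 134, 159.9 and 185. In both, p53-null replicate 2 was the lowest of the 6 libraries and the other p53-null libraries were the highest. Vim, vimentin, expressed in basal, stromal and myeloid cells, was the gene entirely higher, at 109.6, 75.9 and 147 against 159.9, 292 and 337 FPKM.

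Tetraspanins, membrane organisers that group integrins and receptors, held several abundant genes that stood lower. Of 20 tested, 5 (25%) lay entirely lower and 1 (5%) entirely higher, against 8.02% and 4.87% of all tested genes. The median was -0.35 (-0.80 without p53-null replicate 1 to -0.15 without p53/Brca1-null replicate 1), against -0.16 over all tested genes. All 5 of the lower ones were well measured in both groups. Cd9, the most abundant of those, stood at 831, 1379.5 and 1698 FPKM in the p53-null libraries against 608, 359.6 and 466 in p53/Brca1-null, with WT at 931, 989 and 797. Every p53/Brca1-null library was below every p53-null and every WT library. This gave a log2 difference of -1.42 ± 0.31 (SE; limma adjusted p = 0.370). Cd82, a suppressor of cell motility, stood at 101, 149 and 128 against 22.9, 31.04 and 40.9 FPKM. Tspan3 stood at nearly equal levels in p53-null, 97.002, 93.2 and 95.5 FPKM, and at 8.84, 51.8 and 56.1 in p53/Brca1-null. Tspan13 separated by a narrow margin, at 123.3, 312 and 95.4 against 26.6, 50.7 and 93.4. Cd37, a tetraspanin of leukocytes, was the gene entirely higher, at 0.0362, 4.97 and 8.199 against 14.4, 17.9 and 19.4 FPKM, and Cd63, of endosomes, overlapped at 938, 816 and 987 against 672, 814 and 1494.

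Few squamous and envelope genes were measured, and their median was lower. Of 18 listed cornified envelope genes in the table, 6 were listed at 0 in all 6 libraries and 9 were tested. Among those tested, 2 (22.2%, against 8.02% of all tested genes) lay entirely lower and 0 entirely higher. The median was -1.19 (-1.75 without p53/Brca1-null replicate 3 to -0.83 without p53/Brca1-null replicate 2). Of the 4 well measured, 1 was so in both groups. Sprr1a, a cross-linked envelope protein also induced by stress, stood at 25.9, 61.4 and 52.1 FPKM in p53-null, while in p53/Brca1-null it was listed at 0 in replicate 1 and stood at 5.05 and 0.535 in replicates 2 and 3. The log2 difference was -4.41 ± 0.87 (SE; limma adjusted p = 0.315), the largest among lower genes of at least median level. Tgm2, a cross-linking transglutaminase, stood at 39.9, 92.4 and 27.6 against 4.14, 23.3 and 10.6 FPKM. Sprr1a and Tgm2 were well measured in p53-null only, which by itself favours a lower level in p53/Brca1-null. Krt16, a keratin of activated epidermis and the member well measured in both groups, overlapped at 14.4, 34.7 and 23.4 against 25.7, 21.9 and 35.4 FPKM. Its log2 difference was positive, at 0.24. Anxa3, an annexin, was the 1 gene entirely lower among 18 S100 and annexin genes, at 187, 168 and 103 against 45.6, 30.2 and 27.2 FPKM, while S100a6 overlapped at 733, 1068 and 489.9 against 566, 252 and 641.

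Other genes among the 15 that stood furthest lower belong to no single group. Clca2, an epithelial surface protein known as a p53 target, stood at 52.1, 96.9 and 37.7 FPKM in the p53-null libraries against 3.71, 18.01 and 9.21 in p53/Brca1-null. Cd164, a sialomucin, stood at 90.2, 288 and 139 against 19.4, 42.01 and 33.01 FPKM and Npdc1, a membrane protein gene, at 21.3, 51.3 and 62.9 against 3.699, 9.81 and 8.22. Nmd3, which exports the large ribosomal subunit from the nucleus, stood at 88.2, 38.96 and 70.04 against 0.0937, 13.9 and 1.22 FPKM. Asns, asparagine synthetase, a target of the amino acid response, stood at 102, 31.2 and 23.03 against 0.334, 9.91 and 3.65 FPKM. Ddah2, which degrades methylated arginine, separated by a narrow margin, at 33.4, 61.4 and 41.04 against 31.6, 4.797 and 6.19. Sele, E-selectin of activated endothelium, stood at 141, 6.598 and 15.5 FPKM in p53-null, was listed at 0 in p53/Brca1-null replicates 1 and 3 and stood at 4.24 in replicate 2. Here p53-null replicate 1, the library with the highest endothelial sum, was also the highest. Apart from Cd164, the genes of this paragraph were well measured in p53-null only, which by itself favours a lower level in p53/Brca1-null.

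Growth factor signalling genes of the EGF and IGF families had a median of -0.60 (-0.74 without p53/Brca1-null replicate 2 to -0.34 without p53-null replicate 1). Of 18 tested, 3 (16.7%) lay entirely lower and 2 (11.1%) entirely higher, against 8.02% and 4.87% of all tested genes. Igfbp3, an IGF carrier induced by p53, stood at 37.3, 19.6 and 46.5 FPKM in the p53-null libraries against 1.61, 1.36 and 4.61 in p53/Brca1-null (log2 difference -3.36 ± 1.03, limma adjusted p = 0.538), and at 2.08, 26.8 and 22.3 in WT. It was well measured in p53-null only, which by itself favours a lower level in p53/Brca1-null. Igfbp4, another carrier, lay entirely higher, at 39.999, 8.44 and 13.9 against 49.8, 63.2 and 56.3 FPKM. Irs2, the adaptor of the insulin and IGF receptors, stood at 17.5, 17.4 and 29.6 against 9.73, 12.7 and 15.5 FPKM. Igfbp7, abundant in vessels, overlapped at 409, 44.7 and 154 against 49.4, 299 and 49.8 FPKM, and it was highest in p53-null replicate 1.

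Immediate-early genes leaned lower with little separation. Of 27 tested, 2 (7.41%) had a positive difference, against 42.9% of all tested genes. Entirely lower were 4 (14.8%), against 8.02% of all tested genes, and 0 lay entirely higher. The median was -0.52 (-0.71 without p53-null replicate 1 to -0.46 without p53/Brca1-null replicate 1), against -0.16 over all tested genes. Without p53/Brca1-null replicate 3, 13 (48.1%; all genes 13.6%) lay entirely lower. Atf3, a stress-induced factor and the most abundant of the list, stood at 449, 961 and 317 FPKM in the p53-null libraries against 221, 281 and 326 in p53/Brca1-null and overlapped, since p53/Brca1-null replicate 3 exceeded p53-null replicate 3. Ier2, an early response gene, stood at 131, 92.3 and 92.3 against 60.3, 80.7 and 58.96 FPKM and Mafk, a small Maf factor, at 85.9, 59.3 and 52.7 against 13.1, 37.5 and 44.8. Fos stood at 193, 335 and 161 against 60.4, 93.5 and 183 FPKM, with p53/Brca1-null replicate 3 above 1 of the p53-null libraries.

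Heat shock genes did not separate: 0 of 26 lay entirely higher and 0 entirely lower, with a median of -0.11 (-0.27 without p53-null replicate 2 to 0.09 without p53-null replicate 1). Without p53-null replicate 1, which had the highest level of the chaperone gene Hspa8 at 1704 FPKM, 8 (30.8%; all genes 7.24%) lay entirely higher. Endoplasmic reticulum stress genes included 5 (19.2%) entirely lower and 1 (3.85%) entirely higher of 26, against 8.02% and 4.87% of all tested genes. Their median was -0.28 (-0.41 without p53-null replicate 2 to -0.06 without p53/Brca1-null replicate 3). Calr, calreticulin, stood at 259, 251 and 229.5 FPKM in the p53-null libraries against 206, 193 and 128 in p53/Brca1-null, and P4hb, a disulfide isomerase, at 191, 100.2 and 109.9 against 99.5, 83.5 and 44.002. Creld2, a stress-induced secreted protein, went the other way, at 3.73, 18.05 and 8.32 against 42.04, 46.5 and 59.2 FPKM. Hspa5, the main chaperone of the compartment, overlapped at 979, 418 and 538 against 492, 627 and 369.8 FPKM.

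Targets of p53 separated in both directions in small numbers. Of 33 tested, 3 (9.09%) lay entirely higher and 3 (9.09%) entirely lower, against 4.87% and 8.02% of all tested genes. The lower share was near that of all tested genes. The median was -0.37 (-0.48 without p53-null replicate 2 to -0.26 without p53/Brca1-null replicate 2) against -0.16 over all tested genes. Bax, the pro-apoptotic effector, stood at 41.2, 111 and 141 FPKM in the p53-null libraries against 171, 177 and 252 in p53/Brca1-null. Gdf15, a stress-induced cytokine, stood at 84.1, 30.9 and 53.8 against 105, 95.7 and 239 FPKM, and Rps27l, a ribosomal protein relative induced by p53, at 694, 542 and 625 against 1102, 744 and 1076. Plk2, a kinase induced by p53, lay entirely lower, at 128, 146 and 137 against 73.3, 76.2 and 38.9 FPKM, and Btg2, an antiproliferative target, at 33.7, 35.4 and 32.6 against 31.1, 14.2 and 29.3 by a narrow margin. Mdm2 and Cdkn1a, standard targets chosen here after their values were seen, stood at 50.2, 46.7 and 45.9 against 79.1, 74.8 and 41.1 FPKM and 233, 82.2 and 126 against 123.5, 129 and 70.3, and both overlapped.

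Genes of homologous recombination and break repair were mostly too low to compare. Of 43 listed genes 19 were tested and 4 were well measured, and 15 were under 1 FPKM in all 6 libraries, Brca1, Brca2, Bard1 and Palb2 among them. The median was -0.35 (-0.60 without p53/Brca1-null replicate 1 to -0.12 without p53-null replicate 1), with 1 entirely lower and 0 entirely higher. H2afx, the histone variant marked at breaks, was the one lower, at 20.2, 20.7 and 14.01 FPKM in the p53-null libraries against 0.374, 13.2 and 9.602 in p53/Brca1-null. Babam1 and Brcc3, subunits of the BRCA1-A complex, overlapped, at 10.8, 28.5 and 27.8 against 35.9, 27.6 and 17.8 FPKM and 25.3, 11.2 and 8.73 against 11.5, 9.95 and 14.9.

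Cell cycle and replication genes were also low. Of 43 listed genes 29 were tested and 9 were well measured. The median of those tested was 0.25 (0.14 without p53-null replicate 1 to 0.60 without p53/Brca1-null replicate 3), with 1 entirely higher and 3 entirely lower. Without p53/Brca1-null replicate 3, 7 (24.1%; all genes 9.08%) lay entirely higher. Cks1b, a cofactor of cyclin-dependent kinases, stood at 19.6, 12.3 and 18.7 FPKM in the p53-null libraries against 55.9, 43.1 and 44.3 in p53/Brca1-null. Myc lay entirely lower, at 126, 105 and 109 against 32.4, 78.02 and 86.3 FPKM. Stmn1, a microtubule regulator of dividing cells, overlapped at 39.4, 19.7 and 44.2 against 144, 184 and 32.4 FPKM, and Pcna, the replication clamp, at 118, 41.2 and 74.9 against 39.1, 97.2 and 59.997. Ube2c, a mitotic ubiquitin enzyme, was listed at 0 in p53-null replicates 1 and 3 and in p53/Brca1-null replicate 3, stood at 0.689 FPKM in p53-null replicate 2, and reached 51.4 and 23.4 in p53/Brca1-null replicates 1 and 2. Among 22 tested apoptosis genes, Bax and Mcl1 lay entirely higher and 0 entirely lower. Mcl1, which protects cells from Bax, stood at 75.1, 74.8 and 67.1 against 132, 103 and 122 FPKM.

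Ribosomal protein genes lay slightly higher in p53/Brca1-null. Of 82 tested genes of the cytosolic ribosome, 74 had a positive difference, 14 lay entirely higher and 0 entirely lower, and the median was 0.25 (0.13 without p53/Brca1-null replicate 1 to 0.39 without p53-null replicate 1). The number entirely higher was 36 (43.9%; all genes 7.24%) without p53-null replicate 1, 22 (26.8%; all genes 9.1%) without p53/Brca1-null replicate 2 and 29 (35.4%; all genes 9.08%) without p53/Brca1-null replicate 3. The median was 0.04 after quantile normalization, so its size depends on scaling. Rps20 stood at 915, 728 and 915 FPKM in the p53-null libraries against 1463, 1261 and 1051 in p53/Brca1-null, and Rpl38 at 3137, 1656 and 2144 against 4151, 2609 and 2850.1, which overlapped. The summed level was 58679, 40789.8 and 49199 FPKM against 73849, 56748 and 52156, and these ranges overlapped. Reads of ribosomal protein genes can be shared with their many processed pseudogenes, so single members are uncertain.

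Mitochondrial genes encoded in the nucleus leaned the same way. Of 75 tested mitochondrial ribosomal protein genes, 51 had a positive difference, 13 lay entirely higher and 3 entirely lower, and the median was 0.35 (0.21 without p53-null replicate 1 to 0.61 without p53/Brca1-null replicate 2). Without p53/Brca1-null replicate 2, 23 (30.7%; all genes 9.1%) lay entirely higher, and without replicate 3 8 (10.7%; all genes 13.6%) lay entirely lower. Mrps21 stood at 109, 158 and 187 FPKM in the p53-null libraries against 364, 293 and 348 in p53/Brca1-null, and Mrpl30 at 9.22, 35.8 and 38.9 against 96.3, 52.6 and 94.5. Mrps15 was listed at 0 in p53-null replicate 1 and stood at 44.8 and 36.3 FPKM in replicates 2 and 3 against 127, 77.5 and 44.9, so that the nearest libraries were almost equal. Mrpl49 went the other way, at 13.2, 11.2 and 14.9 against 8.17, 3.87 and 0.504 FPKM. The summed level was 2419.6, 2613 and 2666 FPKM against 3579, 2981 and 3882, without overlap.

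Of 79 tested subunits of the respiratory chain and ATP synthase, 57 were positive, 9 lay entirely higher and 5 entirely lower, with a median of 0.22 (0.12 without p53/Brca1-null replicate 3 to 0.34 without p53/Brca1-null replicate 2). The number entirely higher was 21 (26.6%; all genes 7.24%) without p53-null replicate 1, 17 (21.5%; all genes 9.39%) without p53-null replicate 3 and 27 (34.2%; all genes 9.1%) without p53/Brca1-null replicate 2. Ndufa3, a small accessory subunit of complex I, stood at 264, 159 and 343 FPKM in the p53-null libraries against 739.6, 592 and 613 in p53/Brca1-null (log2 difference 1.40 ± 0.35, limma adjusted p = 0.396). Ndufs1, the large iron-sulfur subunit of the same complex, was lower instead, at 17.5, 6.12 and 10.4 FPKM across p53-null, then 0.0438 and 0.0261 in p53/Brca1-null replicates 1 and 2 and listed at 0 in replicate 3. Uqcr11, of complex III, stood at 466, 507 and 613 against 800.3, 629 and 917 FPKM.

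Medians of carbon metabolism enzymes lay slightly below that of all tested genes. Of 24 tested genes of glycolysis and its branches, 5 (20.8%) lay entirely lower, against 8.02% of all tested genes, and 0 entirely higher. Differences were positive for 10 (41.7%), close to the 42.9% of all tested genes. The median was -0.34 (-0.58 without p53-null replicate 2 to -0.16 without p53-null replicate 1). In the latter setting the median of all tested genes was lower, at -0.37. Aldoa, an aldolase, stood at 288, 364 and 329.7 FPKM in the p53-null libraries against 169, 218 and 188 in p53/Brca1-null. Pkm, pyruvate kinase, stood at 299, 264 and 293 against 214, 177 and 173 FPKM, and Pdhb, a subunit of pyruvate dehydrogenase, at 67.1, 73.2 and 57.9 against 27.3, 45.7 and 11.1. G6pdx, which opens the pentose phosphate route and makes NADPH, stood at 13.7, 26.7 and 12.1 against 2.62, 1.49 and 2.85 FPKM. Gapdh overlapped, at 195, 208 and 242 against 374, 295 and 184 FPKM, and so did Ldha, lactate dehydrogenase, at 349, 221 and 278 against 257, 196 and 198. In the tricarboxylic acid cycle 4 of 23 (17.4%) lay entirely lower and 2 (8.7%) entirely higher, against 8.02% and 4.87% of all tested genes. Their median was -0.31 (-0.62 without p53-null replicate 1 to -0.17 without p53/Brca1-null replicate 3). Dlst, of the oxoglutarate dehydrogenase complex, stood at 53.9, 24.3 and 18.9 against 2.82, 9.48 and 7.504 FPKM, while Idh2, which makes mitochondrial NADPH, stood at 0.169, 20.7 and 20.5 against 35.6, 21.2 and 38.3, where the nearest libraries were almost equal.

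**Figure D4:**
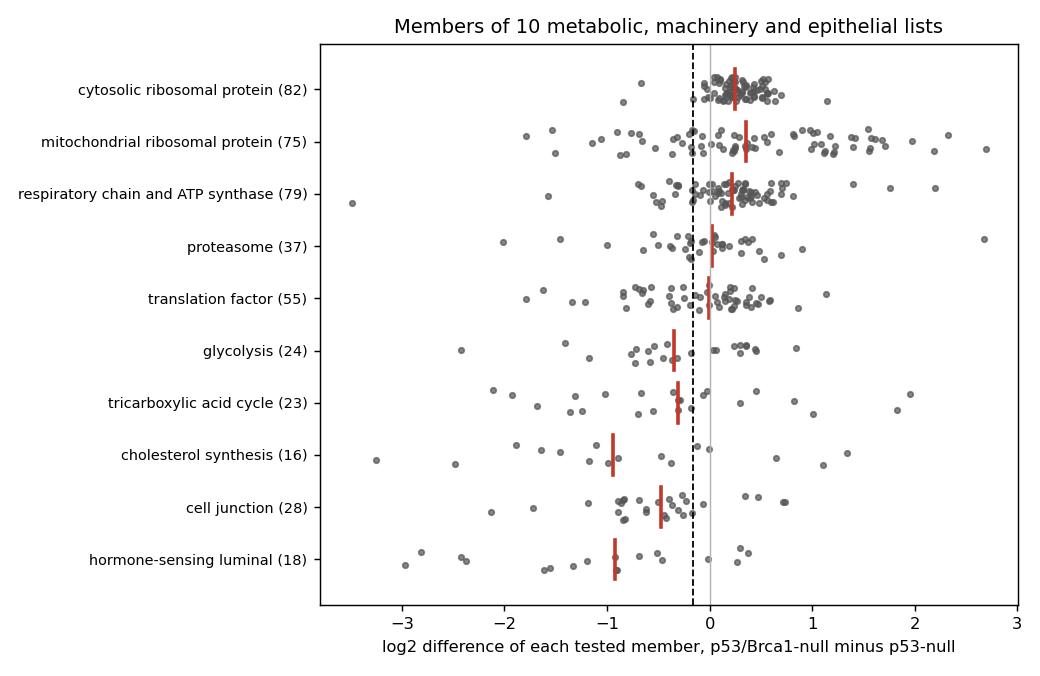
Log2 difference of every tested member (points, shifted at random in height for visibility) of 10 metabolic, machinery and epithelial gene lists. Red bars mark each list's median and the dashed line marks the median of all tested genes at -0.16. The cytosolic ribosomal proteins cluster just above 0 around 0.25, while the cholesterol and hormone-sensing lists spread mostly below 0.

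The remaining machinery lists had few separated members. Of 37 proteasome subunits 2 lay entirely higher and 1 entirely lower, with a median of 0.02 (-0.20 without p53/Brca1-null replicate 1 to 0.07 without p53/Brca1-null replicate 2), and 7 (18.9%; all genes 13.3%) lay lower without p53/Brca1-null replicate 1. Among 55 translation factors the counts were 1 higher and 3 lower, with a median of -0.01 (-0.10 without p53-null replicate 2 to 0.07 without p53-null replicate 3), and 8 (14.5%; all genes 13.3%) lay lower without p53/Brca1-null replicate 1. Spliceosome and RNA binding genes had 5 of 75 entirely higher and 5 entirely lower, with a median of -0.08 (-0.09 without p53-null replicate 1 to 0.09 without p53/Brca1-null replicate 3). Their count lower was 11 (14.7%; all genes 20.3%) without p53-null replicate 1, 10 (13.3%; all genes 12%) without p53-null replicate 2 and 14 (18.7%; all genes 14.2%) without p53/Brca1-null replicate 2, and their count higher 10 (13.3%; all genes 9.83%) without p53/Brca1-null replicate 1. Psmd10, a proteasome assembly chaperone, stood at 1.94, 7.65 and 1.73 FPKM in the p53-null libraries against 21.3, 33.4 and 22.7 in p53/Brca1-null. Eif4a3, a core of the exon junction complex, stood at 136, 119 and 114 against 77.8, 34.4 and 41.1 FPKM. RNA polymerase subunits had 1 of 24 entirely higher and 2 entirely lower, with a median of -0.31 (-0.43 without p53/Brca1-null replicate 3 to 0.03 without p53-null replicate 1). Rab GTPases of vesicle traffic had 3 of 36 higher and 4 lower, with a median of -0.09 (-0.44 without p53-null replicate 1 to 0.02 without p53/Brca1-null replicate 1), and 9 (25%; all genes 20.3%) lay lower without p53-null replicate 1. Rab13, of tight junction traffic, lay entirely higher, at 10.5, 19.1 and 11.9 against 39.6, 20.01 and 79.7 FPKM by a narrow margin, and Rab1, of traffic from the endoplasmic reticulum, entirely lower, at 71.5, 97.5 and 89.1 against 35.98, 54.1 and 52.1.

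Oxidative defence genes had a median of 0.12 (-0.06 without p53-null replicate 1 to 0.19 without p53-null replicate 3). Of 33 tested, 3 (9.09%) lay entirely higher and 1 (3.03%) entirely lower, against 4.87% and 8.02% of all tested genes. Without p53/Brca1-null replicate 1, 9 (27.3%; all genes 9.83%) lay higher. Gpx1, a glutathione peroxidase, stood at 588, 465 and 670.4 FPKM in the p53-null libraries against 754, 704 and 834 in p53/Brca1-null. Of 121 tested solute carriers 11 (9.09%) lay entirely lower and 1 (0.826%) entirely higher, against 8.02% and 4.87% of all tested genes, with a median of -0.37 (-0.58 without p53-null replicate 1 to -0.14 without p53-null replicate 2). With 1 library left out, the count lower ran from 16 (13.2%) without p53-null replicate 3, as without p53/Brca1-null replicate 1, to 27 (22.3%; all genes 20.3%) without p53-null replicate 1. The count higher reached 9 (7.44%) without p53-null replicate 3, as without p53/Brca1-null replicate 1, against 9.39% and 9.83% of all tested genes. Slc5a5, the iodide transporter of thyroid and lactating breast, stood at 9.31, 76.6 and 18.6 FPKM in the p53-null libraries against 0.0132, 0.664 and 6.84 in p53/Brca1-null, with WT at 73.5, 95.97 and 54.1. Slc12a2, a sodium, potassium and chloride cotransporter of secretory epithelium, stood at 6.25, 45.99 and 9.07 against 0.557, 1.69 and 3.66 FPKM, and Slc25a25, a mitochondrial carrier, at 19.8, 47.3 and 12.6 against 1.76, 1.597 and 5.48. In all 3 of these p53-null replicate 2 was the highest library of the 6. All 3 were well measured in p53-null only, which by itself favours a lower level in p53/Brca1-null.

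Among the 10 most abundant well-measured genes, Tmsb4x, thymosin beta 4, which binds actin monomers, stood at 6819, 8620.5 and 8494 FPKM in the p53-null libraries against 11173, 12792 and 15448 in p53/Brca1-null, without overlap (log2 difference 0.71 ± 0.16, limma adjusted p = 0.370). Its difference was 0.0 under quantile normalization. Fth1, ferritin heavy chain, overlapped at 4528, 4160.1 and 6452 against 4989, 10957 and 10922 FPKM, and Apoe, apolipoprotein E of macrophages and epithelium, at 2232, 1989 and 2211 against 1084, 3475 and 4802. Ftl1, ferritin light chain, stood at 7879, 7928 and 11899 FPKM in the p53-null libraries and at 11884 and 22017 in p53/Brca1-null replicates 1 and 2, and was listed at 0 in replicate 3. Of the 4070 well-measured genes, 264 (6.49%) were listed at 0 in at least 1 of the 6 libraries, and such a value can be a failed estimate.

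Markers of other cell types were measured in all libraries. The endothelial list summed to 5863, 634 and 998 FPKM for p53-null and 386, 1624 and 603 in p53/Brca1-null. Most of it was Fabp4, a fatty acid carrier of endothelium and adipocytes, at 5145, 589 and 829 against 289.7, 1365 and 528 FPKM. Plvap, of fenestrated vessels, stood at 286, 6.53 and 36.9 against 12.1, 53.6 and 10.7 FPKM, and 0 of 16 tested endothelial genes had a positive difference, though none separated. The endothelial median was -0.84 (-1.69 without p53-null replicate 2 to -0.15 without p53-null replicate 1). The fibroblast list summed to 275, 254 and 283 against 139, 960.1 and 272 FPKM and the red blood cell list to 167, 34.5 and 233 against 516, 945 and 56.9, with p53/Brca1-null replicate 2 highest for both. Adipocyte genes other than Fabp4 were led by Car3, carbonic anhydrase 3, at 137, 49.3 and 54.7 against 20.9, 61.8 and 33.3 FPKM, and Lep and Plin1 were listed at 0 in all 6 libraries. Collagen and matrix genes had 0 of 27 entirely higher and 2 entirely lower, with a median of -0.37 (-0.99 without p53/Brca1-null replicate 2 to -0.15 without p53/Brca1-null replicate 1), and Mmp2, gelatinase A, lay entirely lower, at 58.1, 19.8 and 18.7 against 0.127, 4.59 and 5.57 FPKM. The part of these cell types in the results above was not tested.

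**Figure D5:**
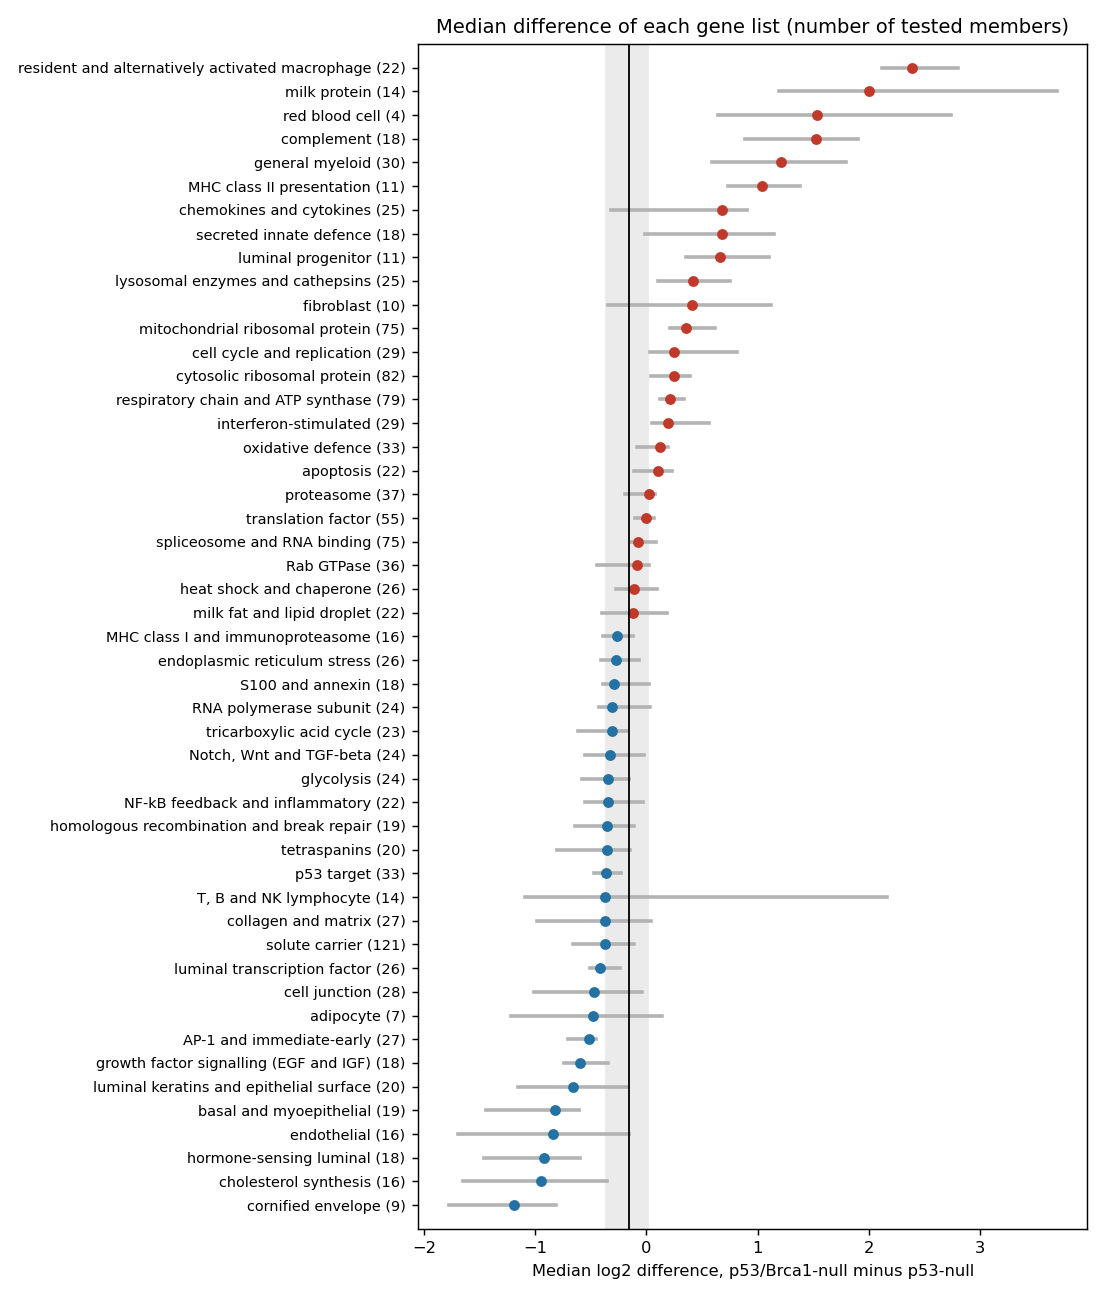
Median log2 difference, p53/Brca1-null minus p53-null, of 49 gene lists, with the number of tested members in brackets. Grey bars span the medians in 18 other settings, the black line is the median of all 9503 tested genes (-0.16) and the shaded band its range in those settings. The macrophage list has the highest median at 2.39 and the cornified envelope list the lowest at -1.19.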

How the data were processed

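RNA of sorted YFP+ cells was extracted with Trizol and converted with a SMARTer v4 low-input kit, per the labels' protocols. The authors deposited 1 table of FPKM values for 9 libraries, aligned to mm9 per the submitters' processing notes. The sources used here do not give the aligner, quantifier, annotation or counting of strand, and the unit was taken from the values. Of 24043 rows, 92 spike-in rows were left out, and 27 rows whose names read as dates were fitted but not named.

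Differences were fitted with limma 3.58.1 in R 4.3.3 on log2(FPKM + 1), with 1 coefficient for each of 3 genotypes, an intensity trend and robust moderation. Only genes that reached 1 FPKM in 3 or more libraries entered, with two-sided tests and Benjamini-Hochberg adjustment over all of them and a threshold of 0.05. The fit was also run on simulated data. How large a difference it could call with 3 libraries a group is not given here. Read depth is unknown, so no counting interval is given.

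The members and gene lists were chosen with earlier results of these data known. Genes were named by a rule: Trp53 and Brca1, then the 15 genes in each direction with the largest difference among well-measured genes that do not overlap and reach the median level, then per list up to 4 separated members with the smallest p and the 2 most abundant, then the 10 most abundant of all. Other genes were chosen after their values were seen, among them Mrc1, Folr2, H2-Eb1, Csf1r, Il6, Csn3, Pgr, Esr1, Mdm2 and Cdkn1a. The 18 alternatives covered the libraries fitted, a replicate block, trend, normalization, filters, pseudocount, library weights, a covariate and leaving out each library.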

Additional observations from a re-analysis of the deposited data

How the results depend on the processing

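No gene was called by limma in 15 of 18 other settings. Fitting only the 6 libraries compared called 1 gene, Ccl8 (adjusted p = 0.0161). Restricting the fit to well-measured genes called 3, Enpp5, Gemin2 and Pigf, all lower. That filter uses the levels of the compared groups and lets genes in through their higher group alone. These 3 calls are therefore not counted as support. Library weights called 19, 3 higher and 16 lower, Retnla, Prlr, Ptn and Cd9 among them. Leaving out each library in turn called 0 genes each time. The cause of these differences was not tested. Across 64 genes and the 18 settings, 1 of 1152 log2 differences did not keep its sign. It was that of Tmsb4x, which was 0.0 under quantile normalization and so was lost, not reversed.

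The labels number the replicates 1 to 3 in each group. Same-numbered p53-null and p53/Brca1-null libraries had deviation correlations of -0.00947, -0.162 and 0.0516. Differently numbered pairs of these groups ran from -0.109 to 0.14. Whether same-numbered libraries were prepared together cannot be told from such correlations. With the replicate block, 0 genes were called and 495 had an unadjusted p under 0.05, against 450 without it.

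The median of all genes ran from -0.37 without p53-null replicate 1 to 0.01 with detected genes as a covariate. Medians of the macrophage, MHC class II, complement, hormone-sensing and cholesterol lists kept their sign in all 18 settings, while those of the lymphocyte, milk fat, oxidative defence, apoptosis, proteasome and translation lists changed sign in 3 to 6 settings. Those of 10 other lists changed sign in 1 or 2 settings. Read depth is unknown, so the precision of single FPKM values could not be given.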
